A study of Rattus norvegicus with 28 samples.

Results

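The 7 mitochondrially encoded mRNAs for subunits of respiratory complex I were followed in whole rat brain, chosen by their Ensembl identifiers, which make 7 of the 32623 gene rows in the deposited tables. They are Nd1 (ENSRNOG00000030644), Nd2 (ENSRNOG00000031033), Nd3 (ENSRNOG00000033615), Nd4l (ENSRNOG00000031053), Nd4 (ENSRNOG00000029707), Nd5 (ENSRNOG00000029971) and Nd6 (ENSRNOG00000029042). All 7 passed the filter on low counts.

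The study measured brain RNA of 2 inbred rat strains, BN-Lx/Cub and SHR/OlaIpcv, in males and in females of 3 estrous stages (pre-estrus, estrus, post-estrus), to ask how sex and the estrous cycle act together with genotype. Each strain had 4 females per stage and 2 males, giving 8 groups and 28 libraries. No treatment, age or transgene is named in the labels. The extraction text mentions only males, whereas the labels of single samples name both sexes and set the groups here. Libraries were made from total RNA with a stranded kit after removal of ribosomal RNA. Replicates are called biological in the labels.

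Complex I passes electrons from NADH to ubiquinone and pumps protons across the inner mitochondrial membrane, and the brain relies heavily on the ATP made from that gradient. The 7 ND proteins belong to the core of the membrane arm of the complex, and its other subunits are encoded in the nucleus. Mitochondrial genes are transcribed as long RNAs from both strands of the circular genome and then cut into single mRNAs. Nd6 is read from the strand opposite to the other 6. Nd4l and Nd4 lie on a shared mRNA.

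Gene counts per library ran from 42446718 to 87923728. ERCC spike-ins, synthetic RNAs added to the sample, took 1.46% to 6.05% of counts. The most abundant row, ENSRNOG00000043866, has 1571 bases and no name in the files, and held 13.2% to 35.9% of gene counts. Its mean share was 28.6% in BN-Lx females and 23.1% in SHR females. The highest share was that of BN-Lx post-estrus replicate 5 and the lowest that of SHR post-estrus replicate 13, and these libraries also stand apart in the ND mRNAs. Each library description ends in b35 or b37, whose meaning is not stated. Among females, 5 BN-Lx and 7 SHR libraries carry b35, and 7 BN-Lx and 5 SHR libraries carry b37.

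The 7 mRNAs together made up 0.286% to 0.672% of gene counts. Per length, in TPM (the authors' length-scaled unit), Nd3 was the most abundant, with a median of 2107.6 TPM over 28 libraries, followed by Nd1 with 1496.3 TPM. Nd3 was above Nd1 in 27 of 28 libraries, and Nd1 above Nd2 in 28 of 28. Nd2 had a median of 353.4 TPM and lay above Nd4, at 235.9 TPM, in 28 of 28 libraries. Nd4 exceeded Nd5, at 200.5 TPM, in 23 of 28 libraries. Nd5 and Nd4l, at 196 TPM, could not be ordered, since Nd5 was the higher in 13 of 28. Nd6 was lowest, with 106.1 TPM, and lay below Nd4l in 27 of 28 libraries.

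Between neighbours in this order, the widest step was the 4.23-fold one from Nd1 to Nd2. The short genes carry the least certain lengths. Nd4l has 297 bases, and the authors' effective length for it, the stretch a fragment can start in, ranged from 126.65 to 161.74 bases between libraries. For Nd3, of 348 bases, it ranged from 176.61 to 212.07. Expected counts were whole numbers in 28 of 28 libraries for 6 of the genes. Nd4l was whole in 21 of 28, and in the others RSEM had divided some of its reads with another row.

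**Figure D1:**
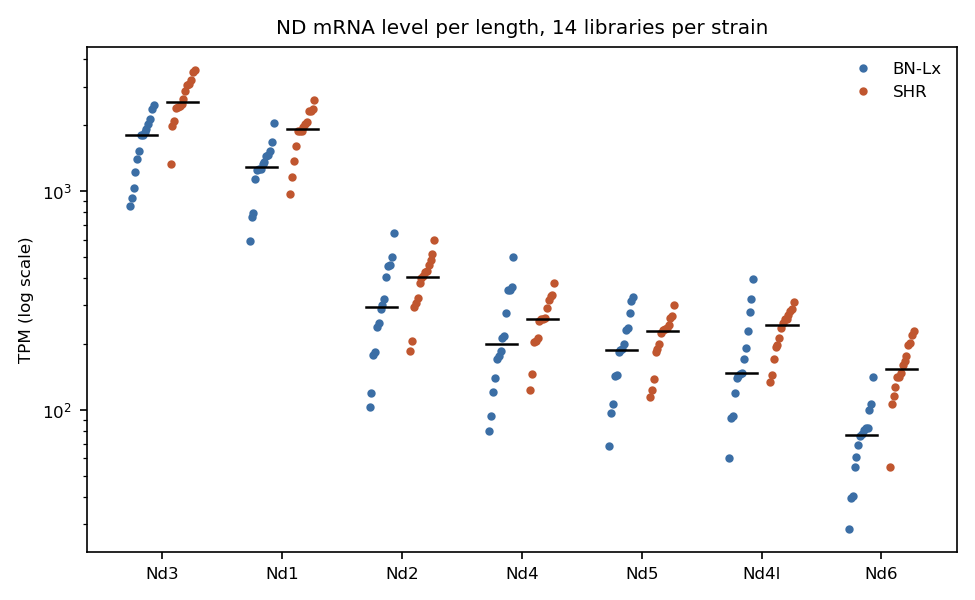
Level of each ND mRNA per length, as the authors' TPM on a log axis, with genes ordered by their median. Each point is 1 library, blue for BN-Lx and orange for SHR (14 each), and the black bar is the strain's median; Nd3 and Nd1 sit above the other 5 genes, and Nd6 is lowest.

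The main comparison asked whether the ND mRNAs differ between the strains in females, with stages weighted equally. Nd6 was higher in SHR females, 1.69-fold (95% interval 1.21 to 2.36, n = 12 per strain), and was the only 1 of the 7 that passed the test (edgeR quasi-likelihood test, adjusted p = 0.043 over all genes). Of all 18134 genes tested, 9.51% were called for strain in females, and 4.58% were called as higher in SHR. The median log2 change was 0.04 over the 7 genes and 0.02 over all genes. In bulk tissue, fewer cells of a type and less RNA per cell cannot be told apart.

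Nd6 encodes a membrane subunit of the proton-pumping arm. In BN-Lx females its level ran from 23.45 to 91.91 CPM (counts scaled to library size with TMM factors), with a median of 57.59. SHR females ran from 33.6 to 163.8 CPM, with a median of 88.14. The groups overlapped, with 11 of 12 SHR libraries above the BN-Lx median and 5 above every BN-Lx library. The lowest SHR library was post-estrus replicate 13.

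At single stages, the 4 BN-Lx libraries at pre-estrus read 41.63, 52.69, 61.76 and 73.45 CPM for Nd6, against 82.6, 84.39, 108.6 and 129.1 in SHR. These groups did not overlap, and of all genes 3.81% had every SHR library above every BN-Lx library at this stage. All 4 of these SHR libraries carry the number 201066 in their descriptions, while the BN-Lx libraries do not share a single number. The meaning of the numbers is not stated, and whether libraries that share a number are independent was not tested. At estrus, BN-Lx read 23.45, 44.7, 68.62 and 83.51 CPM and SHR 78.68, 82.2, 101.6 and 156. At post-estrus, BN-Lx read 32.45, 53.42, 74.46 and 91.91 CPM and SHR 33.6, 86.35, 89.94 and 163.8. The groups overlapped at estrus in 1 BN-Lx library and at post-estrus in several.

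The log2 difference of Nd6 in SHR was 0.83 ± 0.40 (SE) at pre-estrus, 0.92 ± 0.40 at estrus and 0.53 ± 0.41 at post-estrus. None of the 3 passed edgeR's quasi-likelihood test, with adjusted p of 0.48, 0.42 and 0.67. The share of all genes called was 2.5% at pre-estrus, 2.24% at estrus and 2.5% at post-estrus. The stage by strain test called no ND gene and 0% of all genes.

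The Nd6 call depended on single libraries and on the processing. It was lost in 14 of 28 fits that each left out 1 library, with adjusted p from 0.011 to 0.084 and log2 changes from 0.63 to 0.85. Those libraries were BN-Lx pre-estrus replicates 3, 5 and 7a, BN-Lx estrus replicates 4 and 9, BN-Lx post-estrus replicates 4 and 6, SHR pre-estrus replicates 11 and 12, SHR estrus replicates 5 and 9, and SHR post-estrus replicates 6, 8 and 12. Scaling to the spike-ins, which moved the median of all genes to -0.24, gave 0.56 with an edgeR adjusted p of 0.73. Among 16 other settings, the Nd6 call was lost in 8, namely that scaling, scaling to the ND sum or to Nd1, no low-count filter, only the groups compared, the replicate block, and b35 or b37 libraries alone. Its log2 change was positive in all 16, from 0.43 to 1.12. Whether the counting used strand is not given in the sources used here, so RNA from the strand opposite Nd6 cannot be told apart from Nd6 itself.

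**Figure D2:**
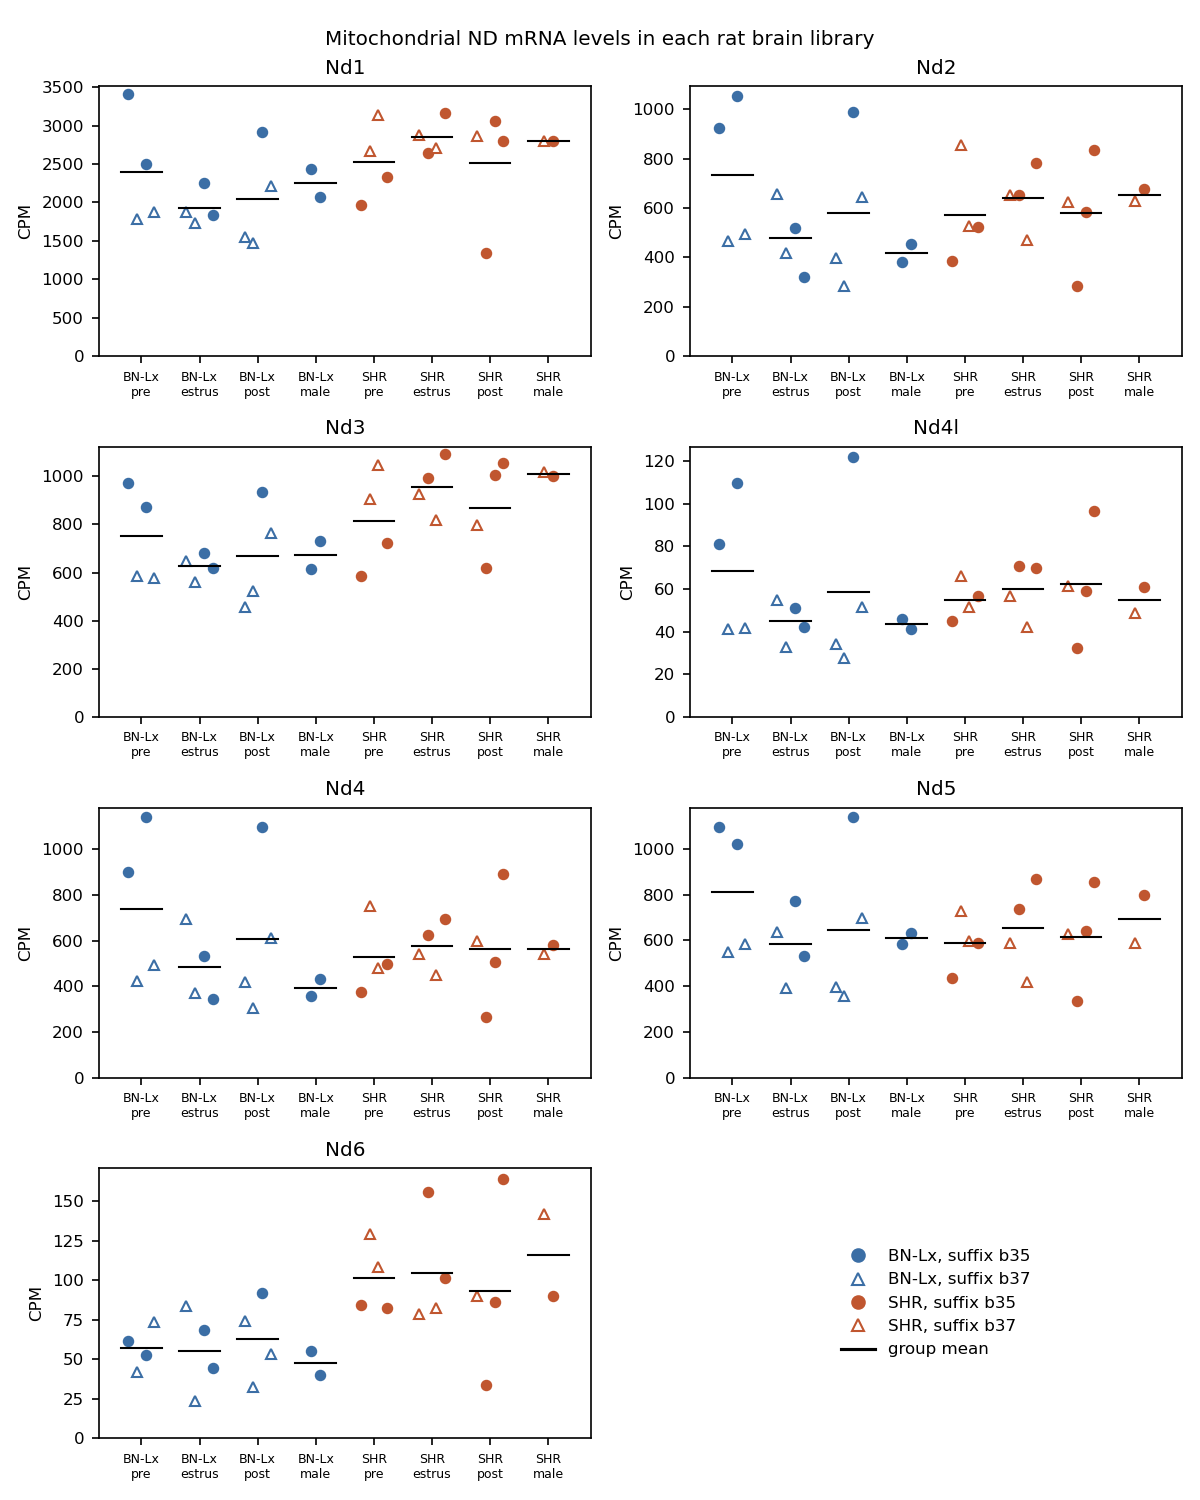
Level of each ND mRNA in CPM by strain, stage and sex, on axes that start at 0. Filled circles are b35 libraries, open triangles b37 libraries, blue BN-Lx and orange SHR, and the black line is the group mean; Nd6 lies mostly higher in SHR, while Nd4 and Nd5 overlap between the strains' females.

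Nd1 forms part of the membrane arm where ubiquinone is bound. Its level in BN-Lx females ran from 1474.2 to 3412.7 CPM, with a median of 1872.6, and in SHR females from 1346.6 to 3164.9, with a median of 2759.0. Although 11 of 12 SHR libraries lay above the BN-Lx median, none lay above every BN-Lx library. The log2 difference was 0.31 ± 0.13 (SE), with a p of 0.030 and an adjusted p of 0.18 by edgeR's quasi-likelihood test.

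Nd3, a small subunit near the junction of the membrane and matrix arms, ran from 457.6 to 971.5 CPM in BN-Lx females (median 634) and from 584.4 to 1091.4 in SHR females (median 916.4). Here 10 of 12 SHR libraries exceeded the BN-Lx median and 5 exceeded every BN-Lx library. The log2 difference was 0.35 ± 0.12, with an edgeR p of 0.0079 and an adjusted p of 0.072. Without SHR post-estrus replicate 13, Nd1 (0.38, adjusted p = 0.036), Nd3 (0.40, adjusted p = 0.035) and Nd6 (0.85, adjusted p = 0.011) were all called in edgeR, in a fit that called 8.8% of all genes. Nd3 was also called without BN-Lx post-estrus replicate 5 (edgeR adjusted p = 0.041, 9.01% of genes called). The same held without SHR pre-estrus replicate 10 (edgeR adjusted p = 0.026, 8.81% called). Over the 28 fits that each left out 1 library, Nd3 was not called in 25 and Nd1 not in 27. SHR post-estrus replicate 13 was the lowest SHR female in Nd1, and SHR pre-estrus replicate 10 the lowest in Nd3. In Nd3, BN-Lx post-estrus replicate 5, at 936.3 CPM, lay near the highest BN-Lx female. Leaving such libraries out by itself pushes SHR minus BN-Lx upward, so these calls are not independent support.

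The proton-pumping subunits Nd2, Nd4 and Nd5 and the small Nd4l gave differences within their errors. Nd2 had medians of 507.4 CPM in BN-Lx and 603.9 in SHR females, with a log2 difference of 0.01 ± 0.20 (95% interval -0.41 to 0.43). Nd4l had medians of 46.49 and 57.75 CPM and a difference of 0.04 ± 0.19 (-0.35 to 0.44). Nd4 had medians of 513.2 and 524 CPM and a difference of -0.13 ± 0.21 (-0.56 to 0.30). For Nd5, medians were 610.6 and 612.8 CPM and the difference -0.15 ± 0.17 (-0.50 to 0.20). Adjusted p in edgeR lay between 0.71 and 0.99 for these 4 genes, and the signs of all 4 turned under other scalings or subsets of libraries.

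The strain differences were also fitted in b35 and in b37 libraries alone. Among b35 libraries alone, the log2 difference was -0.08 for Nd1, -0.38 for Nd2, 0.04 for Nd3, -0.42 for Nd4l, -0.54 for Nd4, -0.55 for Nd5 and 0.59 for Nd6. None of these was called, in a fit that called 1819 of 18134 genes, and Nd5 alone had an unadjusted p under 0.05 in edgeR. Among b37 libraries alone, all 7 were higher in SHR, from 0.19 for Nd5 to 0.79 for Nd6, and only Nd1 was called (0.67 ± 0.12, edgeR adjusted p = 0.012), in a fit that called 2.64% of all genes. Nd6 lay on the same side in both sets, with adjusted p of 0.32 and 0.42. The difference between the sets was 0.70 ± 0.23 for Nd1 and 0.29 ± 0.47 for Nd6, in a test added after the data were seen. No gene passed that test (edgeR adjusted p = 0.95 for Nd1 and 0.96 for Nd6), so 0% of genes were called, although Nd1, Nd3, Nd4l and Nd5 had an unadjusted p under 0.05.

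**Figure D3:**
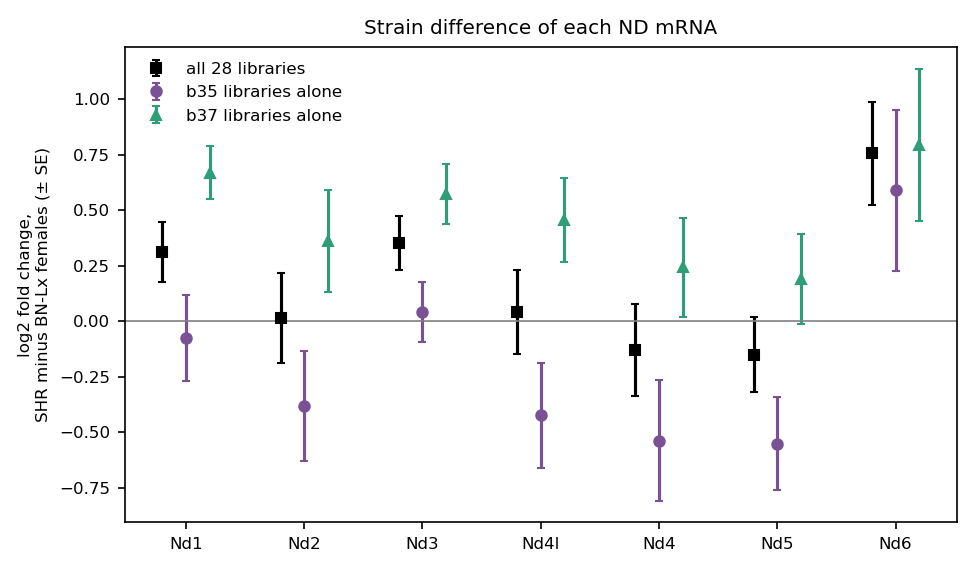
Log2 difference of each ND mRNA between SHR and BN-Lx females (edgeR, bars are ± 1 SE), from all 28 libraries, b35 libraries alone and b37 libraries alone. Nd6 is above 0 in all 3, while Nd2, Nd4l, Nd4 and Nd5 lie below 0 in b35 and above 0 in b37 libraries.

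The most abundant row varied together with the ND mRNAs, as its deviations from the group means correlated with those of each ND gene (below). Its mean share was higher in BN-Lx than in SHR females, as given above, with overlapping ranges (19.7% to 35.9% and 13.2% to 27.7%). In males the order was reversed, with means of 24.7% in BN-Lx and 26.8% in SHR. These shares were not tested for a strain difference. With the log2 share of that row as a covariate, an alternative added after the data were seen, 6 of 7 ND genes were called as higher in SHR females by edgeR, and 26.2% of all genes were called against 9.51% without it. Only Nd5 was not (0.22 ± 0.11, edgeR adjusted p = 0.13). That row followed the ND genes within groups, and its mean share was higher in BN-Lx females. Adjusting for it therefore by itself moves SHR minus BN-Lx upward, so these calls are not independent support. A further alternative added after the data were seen left out BN-Lx post-estrus replicate 5, BN-Lx pre-estrus replicate 7a and SHR post-estrus replicate 13. Their shares of that row were 35.87%, 34.73% and 13.17%, but BN-Lx estrus replicate 2, at 34.14%, lay close to replicate 7a. In that fit Nd1, Nd3 and Nd6 were called, with 8.48% of all genes. Both BN-Lx libraries were also the highest BN-Lx females in Nd2, Nd4 and Nd4l. The SHR library was the lowest SHR female in every ND gene but Nd3. Leaving them out by itself pushes SHR minus BN-Lx upward, so these calls are not independent support. The part of that row in the strain differences was not tested.

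The balance among the 7 mRNAs within a library does not depend on how libraries are scaled. Nd6 made 1.15 counts per 100 counts of the other 6 in BN-Lx females (median, range 0.668 to 2.29) and 1.71 in SHR females (1.17 to 2.73). All 12 SHR libraries lay above the BN-Lx median, though only 2 lay above every BN-Lx library. The medians were 1.21 and 1.75 among b35 libraries and 1.09 and 1.67 among b37 libraries. The 2 BN-Lx males had ratios of 0.922 and 1.25, and the 2 SHR males 1.52 and 2.51. These ratios are descriptions. In the related edgeR fit, with libraries scaled to the sum of the other 6, Nd6 was not called for strain in females.

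Nd5 went the other way relative to Nd1. It made 31.4 counts per 100 Nd1 counts in BN-Lx females (22.58 to 41.01) and 23.42 in SHR females (15.4 to 30.44). All 12 SHR libraries lay below the BN-Lx median, and 6 lay below every BN-Lx library. The medians were 34.3 and 25.24 among b35 libraries and 30.73 and 20.41 among b37 libraries. Among females, a lower ratio to Nd1 was not particular to Nd5. Median counts per 100 Nd1 counts were 26.38 in BN-Lx and 20.2 in SHR females for Nd4, and 26.35 and 22.15 for Nd2. For each of these, 10 of 12 SHR libraries lay below the BN-Lx median. In the main fit Nd1 itself had a log2 difference of 0.31 and Nd5 of -0.15. When libraries were scaled to Nd1, an alternative added after these data were seen, edgeR called Nd5 as lower in SHR females (-0.46 ± 0.12, adjusted p = 0.015) and did not call Nd6 (0.43, adjusted p = 0.17). That scaling moved the median of all genes to -0.27 and called 9.84% of them, with 167 higher and 1617 lower in SHR.

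Nd2 and Nd4 kept close to equal counts, with 96.36 Nd2 counts per 100 Nd4 counts in BN-Lx females (90.39 to 112.5) and 106.5 in SHR females (93.91 to 120.7). Even there, 11 of 12 SHR libraries lay above the BN-Lx median. For this ratio BN-Lx males had 105.8 and 106.8, and SHR males 116.2 and 116.9.

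**Figure D4:**
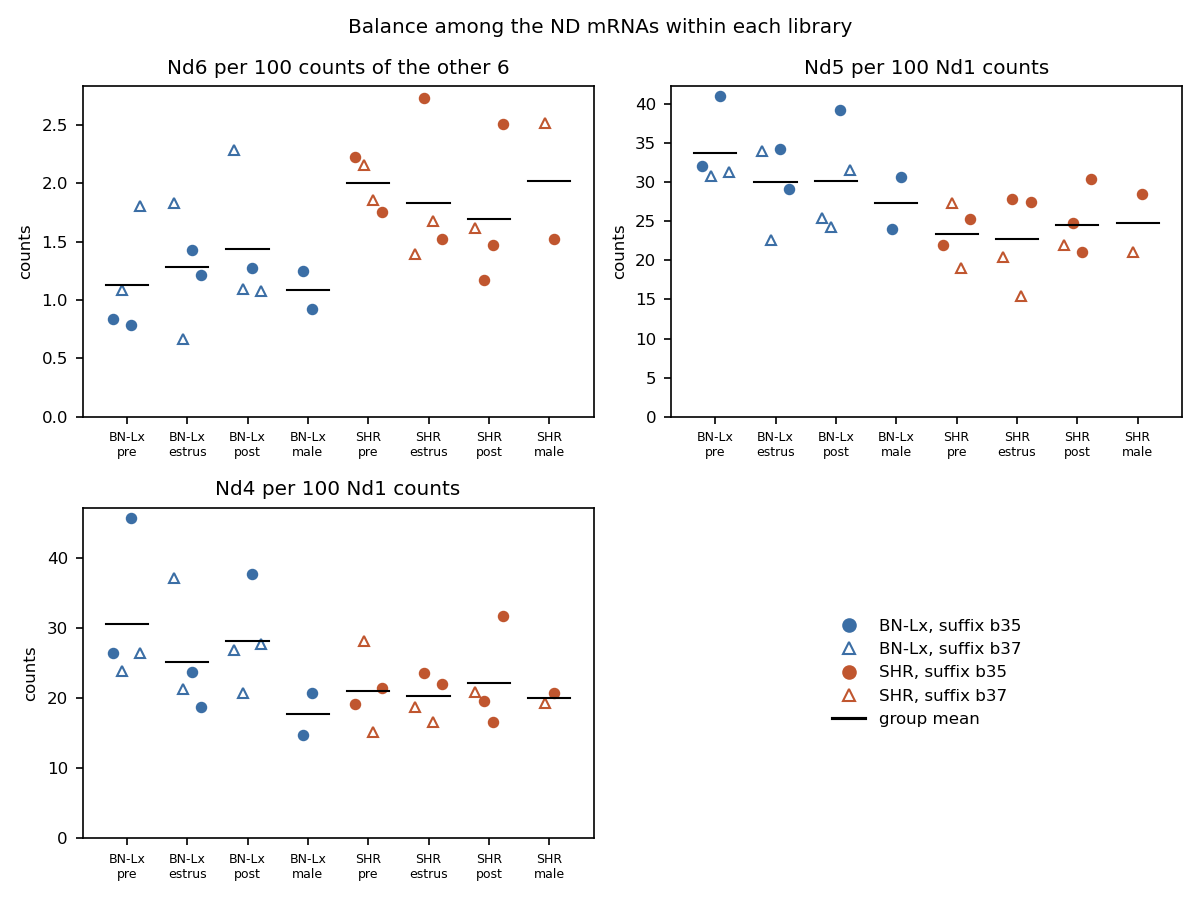
Counts of Nd6 per 100 counts of the other 6 ND mRNAs, and of Nd5 and Nd4 per 100 Nd1 counts, in each library by group, on axes that start at 0. Symbols are as in the plot of CPM levels and black lines are group means. In females of both suffixes, Nd6 is relatively higher and Nd5 relatively lower in SHR, with overlap.

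In males, with 2 libraries per strain, all 7 log2 differences were positive, from 0.39 for Nd1 to 1.34 for Nd6, but none was called, and 0.8% of all genes were. Nd6 read 40.25 and 55.28 CPM in BN-Lx males and 90.04 and 141.6 in SHR males. The difference was 1.34 ± 0.59 (edgeR adjusted p = 0.45). Nd3 read 615.7 and 732 CPM against 1001.3 and 1020.1 (0.68 ± 0.30, edgeR adjusted p = 0.45). These 2 genes were the ones at an unadjusted p under 0.05 in edgeR, and DESeq2 also called 0 with 2 under 0.05. Nd1 turned to -0.12 and Nd5 to -0.11 when scaled to the ND sum. Every SHR male lay above every BN-Lx male for 6 of 7 genes, all but Nd5, as it did for 29.1% of all genes. Both BN-Lx males carry the suffix b35, so the strain difference in males could not be fitted in b37 libraries. The 2 males of each strain also share a number in their descriptions.

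Sex was compared within each strain as males minus females. No ND gene was called in either strain, and none reached an unadjusted p under 0.05 in edgeR, DESeq2 or limma. In each strain 0.0331% of all genes were called. In BN-Lx the log2 differences ran from -0.76 ± 0.43 for Nd4 to 0.02 ± 0.26 for Nd1. In SHR they ran from -0.08 ± 0.36 for Nd4l to 0.24 ± 0.42 for Nd6. The sign turned under at least 1 other setting for 2 of 7 genes in BN-Lx and 7 of 7 in SHR. The sex by strain test called no ND gene (lowest edgeR adjusted p 0.78) and 0% of all genes.

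The estrous cycle gave no call among the ND mRNAs. The test for any stage difference called 0% of all genes in either strain, and no ND gene had an unadjusted p under 0.05 in edgeR or DESeq2, while limma had 1 in SHR (Nd3). Nd1 in BN-Lx had a median of 2183.6 CPM at pre-estrus (1782.1 to 3412.7), 1853.4 at estrus (1738.9 to 2248.3) and 1883.5 at post-estrus (1474.2 to 2912.4). In SHR the medians were 2497.6 (1971.8 to 3144.5), 2794.7 (2641.8 to 3164.9) and 2836.1 (1346.6 to 3058.2). All stages overlapped in both strains.

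For strain by stage, edgeR called no ND gene at any stage. At an unadjusted p under 0.05 it had 0 at pre-estrus, 3 at estrus (Nd1, Nd3 and Nd6) and 0 at post-estrus. Limma called 2 at estrus (Nd3 and Nd6), with 6.98% of all genes, and DESeq2 called 0 at every stage.

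Replicates of a group differed widely in these mRNAs. The within-group SD of log2 CPM was 0.323 for Nd3, 0.355 for Nd1, 0.507 for Nd5, 0.542 for Nd2, 0.563 for Nd4, 0.565 for Nd4l and 0.613 for Nd6. The median was 0.195 over the 2031 genes with at least 64 CPM, and the ND genes lay above 82% to 96.3% of those. The spread was shared among the genes, as deviations from group means over 28 libraries correlated at r = 0.985 for Nd2 and Nd4, 0.947 for Nd4l and Nd4, and 0.875 for Nd1 and Nd3. Nd6 followed the others less closely, with r from 0.495 to 0.689. With the most abundant row, r ranged from 0.678 for Nd6 to 0.855 for Nd2. These points share libraries and depth, and the values are descriptions.

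Of the 28 libraries, 8 had all 6 mRNAs other than Nd6 above their group means, 9 had all 6 below and 11 were mixed. The mean deviation of the 6 was highest in BN-Lx post-estrus replicate 5, at 0.893 on the log2 scale, and lowest in SHR post-estrus replicate 13, at -0.806. In the latter, Nd6 deviated by -1.266 and the most abundant row by -0.806.

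**Figure D5:**
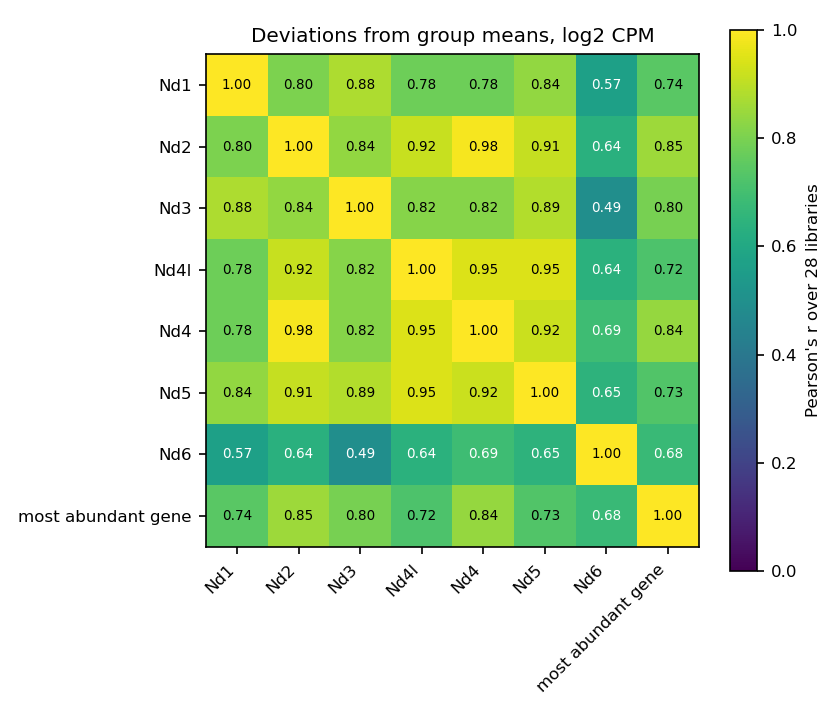
Pearson's r between the log2 CPM of each pair of ND mRNAs, and with the most abundant row, after the group mean was taken from each of 28 libraries. The color runs from 0 to 1; Nd2, Nd4l, Nd4 and Nd5 form the tightest block and no value between Nd6 and another ND gene is above 0.689.

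Outside the 7, the rows whose log2 CPM most resembled the mean of the 6 mRNAs over 28 libraries were ENSRNOG00000006839 (r = 0.903), ENSRNOG00000031766 (0.902), ENSRNOG00000009196 (0.901) and ENSRNOG00000003829 (0.894). The closest to Nd6 were ENSRNOG00000002182 (0.857) and ENSRNOG00000050410 (0.847). The files pair none of these identifiers with a name.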

How the data were processed

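The members and gene lists were chosen with earlier results of these data known. The authors used cutadapt and RSEM, per the submitters' processing notes (versions, build and strand setting: not given in the sources used here). Deposited files hold RSEM expected counts and TPM per gene. Expected counts were rounded, and library sizes exclude the 92 spike-in rows. Genes were kept by filterByExpr (count minimum 10), scaled by TMM and fitted in edgeR 4.0.16 (R 4.3.3), robust quasi-likelihood, with terms for 8 groups and the suffix b35 or b37 (residual df 19). Benjamini-Hochberg adjustment ran over all 18134 genes, and calls are at an adjusted p under 0.05. SEs of log2 changes are approximate. DESeq2 1.42.0, limma 3.58.1, other scalings, filters, subsets and leaving out each library were alternatives. The script was tested on simulated data. All 7 ND genes are named; others are the 4 rows most alike to the mean of 6 and the 2 most alike to Nd6. No table paired Ensembl identifiers with symbols, so 7 lists (81 symbols) of nuclear complex I genes and other groups, and brain markers, were not looked up, and the tissue label was not checked. P-values set each difference against the spread between these libraries.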

Additional observations from a re-analysis of the deposited data

Results flagged for a closer look

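Nd1 in SHR females at post-estrus had 1 library far below the other 3. Replicate 13 read 1346.6 CPM, while the others read 2805.6 to 3058.2 CPM, and the gap to the nearest of them took 0.852 of the group's range, above Dixon's critical value for 4 samples. Over the 42 tests made this way, each of 1 gene in 1 group of 4, 1 was picked out. Chance alone picks about 1 in 20 of independent tests. These tests share libraries and the genes' deviations correlate, so they are not independent and the count cannot be set against that rate. The same library had the lowest share of the most abundant row, 13.2% of gene counts; its part in the Nd1 value was not tested.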

How the results depend on the processing

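For strain in females, the 1 ND gene called became 0 in b35 libraries alone, with spike-in scaling and with no low-count filter. It was also 0 with only the groups compared and with the replicate block. It became 3 with total gene counts, with limma and without the 3 libraries named above. Limma's share of all genes called in females is not given here, so its count cannot be read alone. The number of ND genes called became 6 with the share of the most abundant row as covariate, and 0 to 3 when each library was left out. It stayed at 1 in b37 libraries alone (Nd1), scaled to the ND sum (Nd5, adjusted p = 0.047 in edgeR) and scaled to Nd1 (Nd5), but in those Nd6 was not called. That covariate, which raised calls over all genes in females as given above, also gave ND calls in other comparisons. These were 1 in males, 2 at pre-estrus, 2 at estrus and 3 at post-estrus. The shares of all genes called in those fits are not given here, so these counts cannot be read alone. Limma gave 2 at estrus, with its share of all genes given above. Stage by strain gave 1 (Nd3) in b35 libraries alone, where 5654 of all genes were called. Calls for all genes in females split into 830 higher and 894 lower, but 3094 and 627 with total counts, which moved the median of all genes to 0.15, and 119 and 362 with spike-ins.

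Signs turned for strain in females as follows. In b35 libraries Nd1 was -0.08, Nd2 -0.38 and Nd4l -0.42; in b37 libraries Nd4 was 0.24 and Nd5 0.19. Nd2 and Nd4l were -0.22 and -0.19 with spike-ins, -0.14 and -0.11 scaled to the ND sum, -0.07 and -0.08 with the replicate block and -0.28 and -0.26 scaled to Nd1. Nd4 was 0.01 with total counts, 0.39 with the covariate, 0.18 without the 3 libraries and 0.07 in limma; Nd5 was 0.22 with the covariate and 0.05 without the 3 libraries. Leaving out single libraries gave -0.10 to 0.14 for Nd2, -0.03 to 0.20 for Nd4l and -0.24 to 0.0013 for Nd4. In males, scaling to the ND sum gave -0.12 for Nd1 and -0.11 for Nd5, and scaling to Nd1 gave -0.01 for Nd5.

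For sex in BN-Lx, Nd1 was -0.21 in b35 libraries, -0.19 with spike-ins, -0.17 with only the groups compared, -0.72 with the replicate block and -0.15 with the description number as block; Nd3 was 0.02 with total counts, 0.08 scaled to the ND sum, 0.04 with the covariate and 0.0027 without the 3 libraries. Single libraries left out gave -0.10 to 0.16 for Nd1 and -0.24 to 0.01 for Nd3. For sex in SHR, b35 libraries gave Nd4l 0.01 and Nd6 -0.16, and b37 libraries Nd1 -0.01 and Nd4 -0.04. Spike-ins gave Nd1 -0.04, Nd2 -0.04, Nd4 -0.15 and Nd5 -0.01. The replicate block gave Nd1 -0.17, Nd2 -0.75, Nd3 -0.12, Nd4 -1.02, Nd5 -0.37 and Nd6 -0.94; the description block Nd2 -0.09, Nd4 -0.06 and Nd5 -0.0011. The covariate gave Nd1 -0.08, Nd2 -0.17, Nd4 -0.29, Nd5 -0.06 and Nd6 -0.03. The ND sum gave Nd1 -0.03 and Nd4 -0.08. Nd4 was also -0.02 with total counts, -0.06 scaled to Nd1 and -0.06 without the 3 libraries. Leaving out single libraries gave Nd4l -0.19 to 0.03, Nd4 -0.08 to 0.14 and Nd6 -0.22 to 0.61. None of the 14 sex differences was called under any setting.

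The causes were not tested. Replicate numbers do not pair the libraries: same-numbered libraries of different groups deviated together at r -0.335 to 0.156 (18 pairs, 2 over 0.1), and the block left 7 residual degrees of freedom, with Nd6 at 1.12 (edgeR adjusted p = 0.11). Strain could not be fitted with the description number as block, since the numbers lie within strains, and the male contrasts involving BN-Lx could not be fitted in b37 libraries.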
